A study of Mus musculus with 2 samples.

Results

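The 9 genes described here are metabolic markers of the proximal tubule of the kidney, out of 21646 protein-coding genes on the autosomes and the X chromosome. They were chosen by name and are Gatm, Miox, Acsm2, Keg1, Kap, Ttc36, Slc27a2, Slc13a3 and Ass1. Each gene was followed over its GENCODE M21 body and 10 kb on each side. The data are DNase-seq of whole kidney from female B6CASTF1/J mice, 8 to 10 months old and untreated as far as the labels say, in 2 libraries called replicate 1 and replicate 2. DNase I cuts accessible DNA, so a peak marks an accessible region and a footprint marks a short stretch within it that was cut less than its surroundings. The labels give the libraries separate tissue samples under a shared donor entry, and whether these came from separate animals is not stated. The spread between the libraries may therefore be partly technical. The mice are a cross of the C57BL/6J and CAST/EiJ strains, and mapping to the C57BL/6J reference can lose reads of the CAST/EiJ copy, which was not tested.

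The proximal tubule takes back most of the filtered solutes and runs on the oxidation of fatty acids and organic acids. Its cells also make compounds for the rest of the body, among them the precursor of creatine and the amino acid arginine, and they break down inositol and conjugate acids for excretion. The 9 genes stand for these tasks: enzymes of creatine, inositol, arginine and acyl-CoA metabolism, carriers of fatty acids and dicarboxylates, and proteins of less settled function that are abundant in tubule cells.

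The deposited value of a peak is its signal, whose unit is not stated. It is read here as a density of DNase I cuts scaled per library. The signal rises in equal steps, of 0.00827 in replicate 1 and 0.00834 in replicate 2. Taking each step as a single tag puts the depth at 120.9 M and 119.9 M tags (M, mega), an inference from the values. Overlapping peaks of both libraries were joined into shared regions, of which there were 96735 in the genome. A promoter region overlaps the 500 bases on either side of an annotated protein-coding start site. A distal region overlaps no such window of any gene. Start sites of noncoding genes were not counted, so a distal region can cover such a site. Markers of the tissue's cell types were checked in the same way. Promoters were open in both libraries for 12 of 14 other proximal tubule markers, 3 of 3 thick ascending limb, 3 of 3 distal convoluted tubule, 3 of 3 endothelial, 2 of 4 podocyte, 2 of 4 collecting duct and 2 of 3 stromal markers. None of the 3 immune markers (Ptprc, Cd3e and Cd79a) had a shared promoter peak. Of 4 hepatocyte markers 2 did, Alb and Cyp8b1, with mean signals of 0.373 and 0.776. Over all protein-coding genes 63.0% had an open promoter, and the median signal of open promoters was 4.77. An open call does not weigh signal: among thick ascending limb markers it covers 5.35 at Umod and 0.357 at Cldn16. In whole tissue, fewer cells of a type and less accessibility per cell cannot be told apart.

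All 9 genes had an open promoter in both libraries, where 63.0% of all protein-coding genes did. In the shorter deposited peak list of each library 6 of 9 did, without Acsm2, Kap and Slc13a3, against 58.9% of all. Their strongest promoter regions ran from a mean signal of 0.623 at Kap to 5.88 at Miox. The median of 2.21 lay below the median of 4.77 over all open promoters. Start sites poor in CpG, the dinucleotide that is dense at many housekeeping promoters, made up most of the group. In 7 of the 9 genes the ratio of observed to expected CpG around the first start site was below the median of all coding genes. Those 7 were Miox, Acsm2, Keg1, Kap, Ttc36, Slc27a2 and Slc13a3. Of them Slc27a2 (0.49) and Slc13a3 (0.54) lay close to the median of 0.56. The ratio of Slc27a2 was taken around its first GENCODE start, which its promoter region does not cover. By the same rule, which accepts any start site of a gene, all 7 counted as open, where 35.0% of all CpG-poor genes did. Acsm2 counted only through internal start sites, whose CpG ratio was not measured, and its first start had no peak. Among open promoters the CpG-poor ones of the whole genome had a median signal of 2.41 and the others 5.87, so the members' median of 2.21 lay close to that of their own class.

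**Figure D1:**
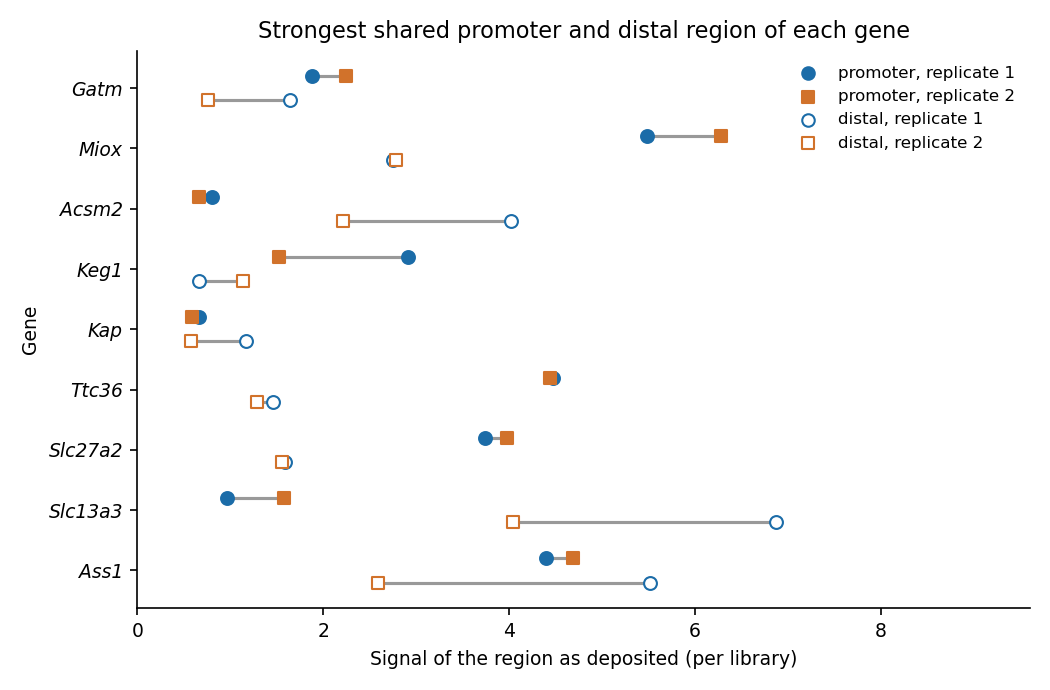
Signal of the strongest shared promoter region (filled) and distal region (open) of each gene in replicate 1 (blue circles) and replicate 2 (orange squares), on the deposited scale, with a grey line joining the libraries. Miox, Ttc36, Slc27a2 and Ass1 have the strongest promoters, while at Acsm2 and Slc13a3 the distal region lies above the promoter in both libraries.

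Miox encodes myo-inositol oxygenase, which turns inositol into glucuronate in the first step of its breakdown. The promoter region at chr15:89334261-89334580 had a signal of 5.48 in replicate 1 and 6.28 in replicate 2, a mean of 5.88 ± 0.563 (SD, n = 2). This was the strongest promoter of the 9 genes in each library, and it stood above 72.4% of all shared promoter regions. The best false discovery rate (FDR) of a base in it was 5.46e-37 in replicate 1 and 6.74e-23 in replicate 2, per the deposited FDR files. It held 5 footprints found in both libraries, the longest of 81 bases over chr15:89334411-89334491. The bases just before the annotated start are shown because 2 of these footprints lie in them. They are chr15:89334223-89334397 on the plus strand (GRCm38.p6), from the RefSeq promoter table. Capitals mark bases inside footprints of both libraries.
Miox promoter: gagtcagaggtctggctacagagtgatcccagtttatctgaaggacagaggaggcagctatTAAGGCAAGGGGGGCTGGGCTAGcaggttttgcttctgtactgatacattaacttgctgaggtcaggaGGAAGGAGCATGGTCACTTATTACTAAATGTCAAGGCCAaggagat
A TATAAA sequence lies 40 bases before the RefSeq start of Miox, past the end of the printed stretch, and inside the 81-base shared footprint. TATAAA, read on both strands here as for every motif, occurred in 13.6% of 32851 RefSeq promoters of 300 bases. Miox had a single shared distal region, 7.79 kb upstream, with signals of 2.75 and 2.78, which agree within counting error. Its 3 shared footprints cover 84 of its 220 bases. One of them, at chr15:89326675-89326695, holds AGGTCA, the hexamer that many nuclear receptors bind. AGGTCA was present in 20.9% of the middle 200 bases of all 77375 shared distal regions and in 12 of the 45 around these genes (26.7%). A match is a description of the letters and not of a bound factor. The region is shown for its footprints, at chr15:89326501-89326720 on the plus strand.
Miox distal: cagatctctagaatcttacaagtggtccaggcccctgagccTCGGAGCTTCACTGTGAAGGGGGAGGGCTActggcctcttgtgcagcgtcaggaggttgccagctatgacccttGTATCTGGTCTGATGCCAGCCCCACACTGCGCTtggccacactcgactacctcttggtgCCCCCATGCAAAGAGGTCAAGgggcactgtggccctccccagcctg

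Gatm encodes glycine amidinotransferase, which makes guanidinoacetate, the precursor of creatine. The promoter had a signal of 1.88 in replicate 1 and 2.24 in replicate 2 (mean 2.06 ± 0.259, SD, n = 2) over chr2:122611181-122611420. It held 1 shared footprint of 10 bases, in a run of A bases at chr2:122611390-122611399. Of 3 shared distal regions, the strongest lay 20.8 kb from the start, downstream of the gene, with 1.64 and 0.759. Replicate 1 was 2.16-fold higher there. The others, 15.7 kb and 2.28 kb into the gene, had mean signals of 0.668 and 0.631 and no shared footprint. With 2 shared footprints in its window, Gatm and Kap had the fewest of the 9 genes.

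Ass1 encodes argininosuccinate synthase, with which the tubule makes arginine from citrulline. Its start was covered by a promoter region of 4.39 and 4.69 (mean 4.54 ± 0.209, SD, n = 2) at chr2:31469981-31470260. A second region, centred 0.567 kb upstream and overlapping the edge of the promoter window, had 3.41 in replicate 1 and 1.92 in replicate 2 and no shared footprint. The region over the start carried 5 shared footprints, 4 of them wholly or partly within the stretch shown. This stretch is chr2:31470020-31470206, plus strand, from the RefSeq promoter table, and ends at the GENCODE start.
Ass1 promoter: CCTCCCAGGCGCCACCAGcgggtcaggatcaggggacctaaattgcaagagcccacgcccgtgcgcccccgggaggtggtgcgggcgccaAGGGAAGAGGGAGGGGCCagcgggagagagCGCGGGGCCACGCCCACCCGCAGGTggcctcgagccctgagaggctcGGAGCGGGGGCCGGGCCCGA
GGGCGG, the core bound by SP and KLF factors, lies 63 bases before the RefSeq start of Ass1 in a shared footprint that begins in the printed stretch, and at another place at chr2:31470016-31470021 in a shared footprint that runs into its first bases. It was present in 35.7% of all RefSeq promoters and in 4 of the 8 members with an entry (Ass1, Kap, Slc13a3 and Slc27a2). Around Ass1 there were 8 shared distal regions. The strongest, 5.45 kb upstream, had 5.51 in replicate 1 and 2.59 in replicate 2. In replicate 1 it thus stood above the promoter (4.39), and in replicate 2 below it (4.69). It held 4 AGGTCA sequences, none of them in a footprint of either library. The next, in an intron 12.9 kb from the start, was higher in replicate 2, with 1.93 and 2.99, and had 3 shared footprints. One of these, of 48 bases, holds AGAGGGC, a match to AGNGGGC from the core of the CTCF motif. That motif was added to the search after the sequences were seen. It was present in 20.7% of all distal regions and in 9 of the 45 around these genes (20%). The region is shown at chr2:31483001-31483220, plus strand, for the footprint around that match.
Ass1 distal: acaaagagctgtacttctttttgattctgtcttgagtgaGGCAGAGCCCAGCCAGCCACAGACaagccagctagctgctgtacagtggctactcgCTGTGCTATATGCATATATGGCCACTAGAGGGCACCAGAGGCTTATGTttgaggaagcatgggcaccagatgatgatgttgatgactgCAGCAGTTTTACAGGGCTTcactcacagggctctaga
The third, 0.983 kb into the gene, had 1.92 and 1.69. Ass1 had the most shared footprints of the 9 genes, 17, of which 11 were distal.

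Acsm2 encodes a medium-chain acyl-CoA synthetase of mitochondria, which activates acids such as benzoate before they are joined to glycine. At the start of the gene its calls differed from those of Miox, Gatm and Ass1. Within 500 bases of the first annotated start (base 119554340 of chromosome 7), neither library had a peak or a base listed at an FDR under 0.05. The promoter region that counted Acsm2 as open lay 7.32 kb downstream, over a group of internal start sites at chr7:119561521-119561795. Its signals were 0.802 and 0.659 (mean 0.730 ± 0.101, SD, n = 2), and no footprint in it was found in both libraries. The stretch before the first start is shown as the counterpart without a peak, at chr7:119554090-119554339, plus strand, from the RefSeq promoter table. Whether reads map uniquely there was not tested. It has no capitals because no footprint was called there.
Acsm2 first promoter: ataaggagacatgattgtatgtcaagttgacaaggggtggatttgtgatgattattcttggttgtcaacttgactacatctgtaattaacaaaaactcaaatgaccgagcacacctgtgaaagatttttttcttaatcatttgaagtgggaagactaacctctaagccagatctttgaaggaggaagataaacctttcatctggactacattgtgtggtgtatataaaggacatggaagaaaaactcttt
It holds TATAAA 28 bases before that start. The strong regions of Acsm2 lay at the other end of the gene. A region 40.4 kb from the start, in an intron, had 4.02 in replicate 1 and 2.21 in replicate 2. Another, 42.4 kb away, had 3.82 and 1.83. Beyond the 3′ end, regions at 50.8 and 51.8 kb had 3.46 and 1.83, and 2.26 and 1.49. The last pair lies next to Acsm1, a paralogue that begins at base 119607026 of chromosome 7. These regions therefore cannot be assigned to a single gene of the cluster. The region at 50.8 kb also lies beside the start of the noncoding RNA gene Gm39078, at base 119604780. All 4 regions were higher in replicate 1, by 1.51-fold to 2.08-fold. The intronic region at chr7:119594621-119594880 is shown on the plus strand as the strongest of the 4.
Acsm2 distal: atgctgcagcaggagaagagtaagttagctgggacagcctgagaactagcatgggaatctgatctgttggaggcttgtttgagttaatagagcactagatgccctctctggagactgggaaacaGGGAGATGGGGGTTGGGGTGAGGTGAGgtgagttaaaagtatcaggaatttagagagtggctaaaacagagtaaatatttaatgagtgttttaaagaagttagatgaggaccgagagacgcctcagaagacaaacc
A further 4 shared distal regions between 5.67 and 8.35 kb flank the internal start sites, with mean signals of 0.673 to 1.40, and each had at least 1 shared footprint. In all, 10 shared footprints lay in the 8 distal regions of Acsm2 and none at its promoter.

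Keg1 encodes a member of the glycine N-acyltransferase family, next to its relative Glyat on chromosome 19. The promoter had 2.91 in replicate 1 and 1.52 in replicate 2 (mean 2.21 ± 0.985, SD, n = 2) over chr19:12695661-12695920. Of the strongest promoters of the 9 genes it differed most between the libraries, and the best FDR also differed, 4.98e-30 and 7.53e-06. Both libraries found 3 footprints around the start, 2 of which end the stretch shown, chr19:12695540-12695785 on the plus strand, from the RefSeq promoter table.
Keg1 promoter: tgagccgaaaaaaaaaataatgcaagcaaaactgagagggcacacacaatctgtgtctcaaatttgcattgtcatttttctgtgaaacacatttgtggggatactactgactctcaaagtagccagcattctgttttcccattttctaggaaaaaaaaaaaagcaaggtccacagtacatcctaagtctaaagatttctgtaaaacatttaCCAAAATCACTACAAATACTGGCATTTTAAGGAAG
The 3 shared distal regions of Keg1 lay past its 3′ end, 25.4 to 26.7 kb from the start. They were weak, with mean signals of 0.540 to 0.894. The region at 25.4 kb covers the start of the antisense RNA gene Gm15962. The region at 26 kb had 0.761 in replicate 1 and 0.867 in replicate 2. The strongest had 0.661 in replicate 1 and 1.13 in replicate 2, and its shared footprint of 27 bases holds AGAGGGC, as in the intron of Ass1. It is shown at chr19:12722401-12722600, plus strand.
Keg1 distal: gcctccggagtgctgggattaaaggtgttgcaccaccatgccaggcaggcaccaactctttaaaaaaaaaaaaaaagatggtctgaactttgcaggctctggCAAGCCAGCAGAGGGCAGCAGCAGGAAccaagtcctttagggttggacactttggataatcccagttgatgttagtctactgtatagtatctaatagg

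**Figure D2:**
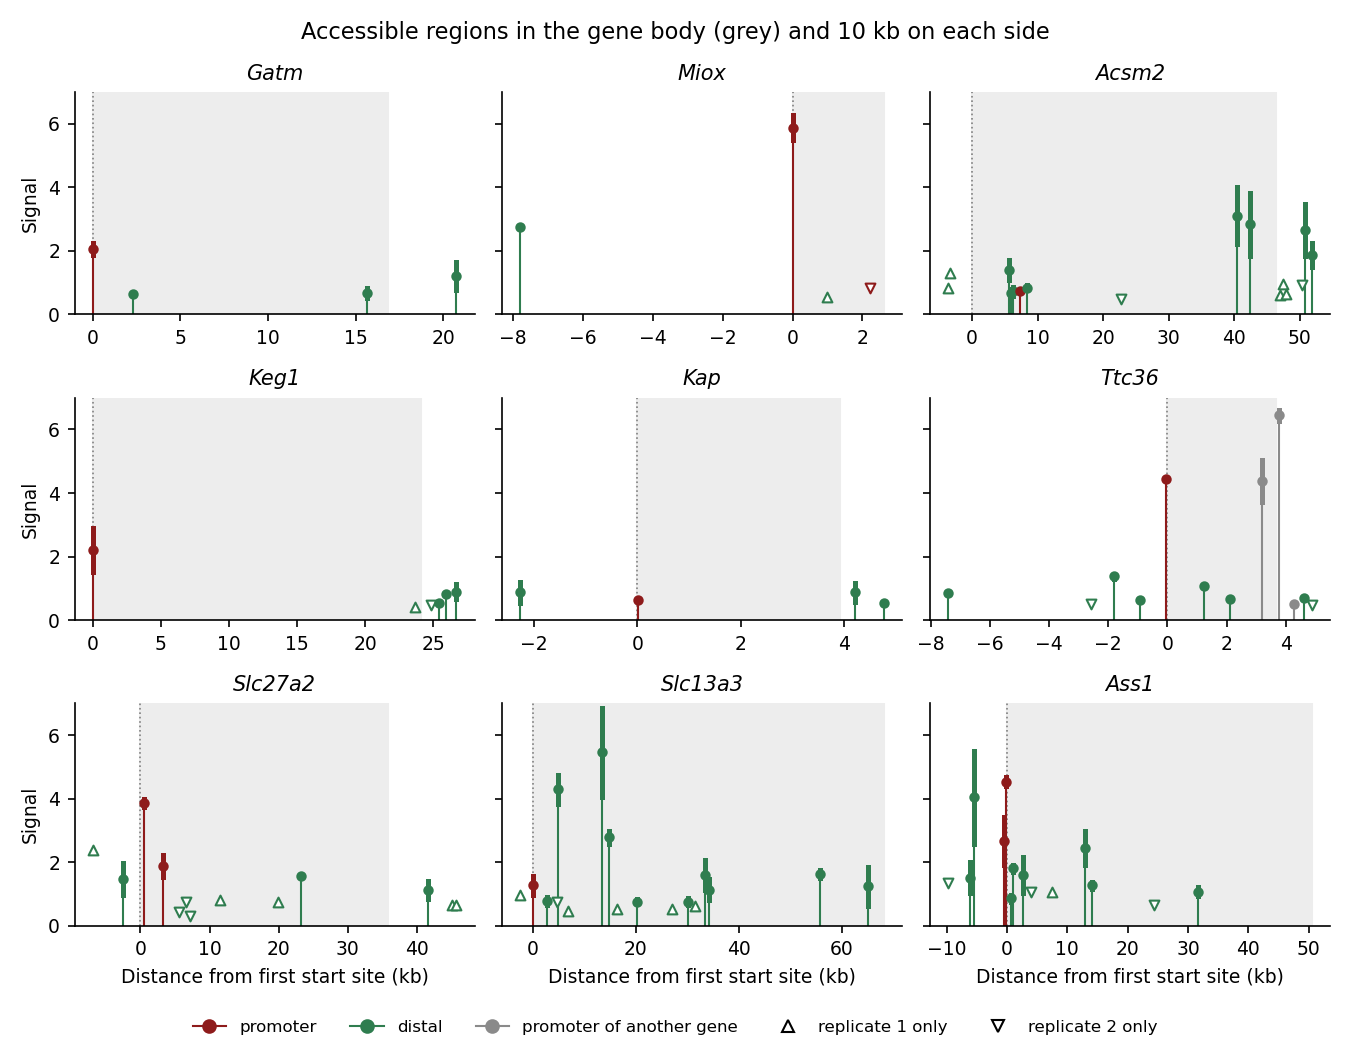
Signal of each region (vertical axis, both libraries as a bar with the mean as a point) against the distance of its middle from the first annotated start site in kb, along the gene. Red marks promoter regions, green distal regions, grey promoters of other genes, and open triangles regions found in 1 library. Among green and red regions, Acsm2 and Slc13a3 have their highest inside or past the gene and Miox and Ttc36 at the start, and the highest region in the Ttc36 window is a Tmem25 promoter (6.62 and 6.27).

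Slc27a2 encodes a fatty acid transport protein that also activates very long chain fatty acids. Its promoter region at chr2:126552741-126553100 had 3.74 in replicate 1 and 3.98 in replicate 2 (mean 3.86 ± 0.170, SD, n = 2) and 3 shared footprints. It does not cover the first GENCODE start, which lies 334 bases upstream of it, but covers the RefSeq start at base 126553024. With promoter windows of 100 bases Slc27a2 was the member no longer called open, leaving 8 of 9. A second region, 268 bases from an internal start site, had 2.23 and 1.54 and 2 shared footprints. The FDR of replicate 2 changed abruptly inside the first region. From base 126552945 to base 126552946 it went from 1.02e-11 to 1.44e-133, and the best value in the region was 8.28e-149, against 1.42e-27 in replicate 1. The signals of the libraries were close there, so the FDR of replicate 2 at Slc27a2 is not used to rank it. The strongest of 3 shared distal regions, in an intron at 23.2 kb, had 1.59 and 1.55, with AGGTCA in 1 of 2 shared footprints. The next, 2.48 kb upstream, had 1.98 in replicate 1 and 0.967 in replicate 2, with 1 shared footprint. The third, at 41.6 kb and inside Hdc, had 0.86 and 1.41, also with 1 shared footprint. A region 6.88 kb upstream was the strongest around any of the genes that a single library held, with 2.39 in replicate 1 and no peak in replicate 2.

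Slc13a3 encodes the sodium-dicarboxylate cotransporter of the basolateral membrane, which brings citric acid cycle intermediates into the cell. Its promoter at chr2:165473061-165473322 was weak, 0.967 in replicate 1 and 1.58 in replicate 2 (mean 1.27 ± 0.430, SD, n = 2), and had no shared footprint. The body of the gene held the strongest distal region of all 9 genes, in an intron 13.4 kb from the start, with 6.87 in replicate 1 and 4.04 in replicate 2. It stood above 97.9% of all shared distal regions and was 4.29-fold the promoter in mean signal. A second intronic region, at 4.97 kb, had 4.76 and 3.85, and another, at 14.8 kb, 2.98 and 2.59. All 3 were above the promoter in both libraries. The middle 300 bases of the strongest, chr2:165459711-165460010, are shown 5′ to 3′ on the minus strand, that of the gene, since its 3 shared footprints lie in them.
Slc13a3 distal: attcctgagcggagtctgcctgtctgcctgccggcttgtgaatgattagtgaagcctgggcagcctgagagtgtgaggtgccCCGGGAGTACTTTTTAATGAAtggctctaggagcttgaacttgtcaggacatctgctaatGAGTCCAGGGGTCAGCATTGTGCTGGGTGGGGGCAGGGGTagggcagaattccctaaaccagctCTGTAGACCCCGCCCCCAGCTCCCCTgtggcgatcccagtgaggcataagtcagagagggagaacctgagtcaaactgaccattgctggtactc
The last of these footprints in the direction of the gene, of 26 bases, holds GGGCGG on the opposite strand. GGGCGG was also in a shared footprint of the region at 4.97 kb, in 2 overlapping copies. Over all distal regions it was present in 9.06%, and around the members in 3 of 45 (6.67%). Slc13a3 had 10 shared distal regions, the most of the 9 genes, and 13 shared distal footprints. Its body of 68.2 kb is also the longest of the group. One intronic region, 65.1 kb from the start, differed the other way from most, with 0.620 in replicate 1 and 1.85 in replicate 2, a 2.98-fold difference.

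Kap encodes the kidney androgen-regulated protein, an abundant product of mouse tubule cells whose level depends on sex hormones. Only female tissue was measured. The promoter was the weakest of the 9 genes, with 0.661 and 0.584 (mean 0.623 ± 0.0550, SD, n = 2) at chr6:133853621-133853883. A shared footprint of 10 bases lay at the first GENCODE start and overlaps GGGCGG. The sequence TATAAA lies 31 bases before the RefSeq start, and only its edge touches a footprint, found in replicate 1 alone. Of 3 shared distal regions, the one 4.21 kb from the start, past the 3′ end, had 1.17 and 0.575, and the one 2.26 kb upstream had 1.20 and 0.550. In replicate 1 both stood above the promoter and in replicate 2 both stood just below it, so the order at Kap rests on replicate 1. The third, at 4.77 kb, had 0.554 and 0.534.

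Ttc36 encodes a small protein of tetratricopeptide repeats that has been linked to tyrosine breakdown. Its promoter at chr9:44802881-44803340 had 4.47 and 4.44 (mean 4.45 ± 0.0265, SD, n = 2), the closest agreement of the strongest promoters, and 5 shared footprints. One of them holds AGGTCA, at chr9:44803223-44803228. Ttc36 is short, 3.68 kb, and lies between Kmt2a and Tmem25. The window took in 3 promoter regions of Tmem25, the strongest with 6.62 and 6.27, and 3 of the 6 distal regions lay inside Kmt2a. The share of the window listed at an FDR under 0.05 in both libraries, 16.8%, was the highest of the 9 genes. This window includes the Tmem25 promoter. The strongest distal region, inside Kmt2a and 1.80 kb upstream of Ttc36, had 1.46 and 1.29 with 2 shared footprints. The next, 1.25 kb into the gene, had 1.13 and 1.03. The third, inside Kmt2a and 7.42 kb upstream, had 0.91 and 0.775. The others had mean signals of 0.619 to 0.685.

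Read together, 59 shared regions lay in the windows of the 9 genes. Of these 11 were promoter regions of the members, 45 were distal and 3 were promoter regions of Tmem25. Each of the 9 genes had at least 1 distal region, where 72.4% of all protein-coding genes did. The median was 3 per member (range 1 to 10) against 2 over all genes, with a median body of 24.1 kb in the members and 17.4 kb over all. Of the distal regions, 24 lay in introns, 3 touched an exon, 10 lay downstream and 8 upstream, and 5 were inside another coding gene. The strongest distal region of a member had a median signal of 1.57, below the 1.81 of all genes with such a region, while the median over the 45 regions, 1.14, was above the 0.918 of all distal regions. The strongest distal region was above the promoter in 3 of 9 members (Acsm2, Slc13a3 and Kap), where this held for 28.0% of all genes with both. The members' share is near that of all genes.

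At least 1 shared footprint lay in the promoter of 7 of the 9 members, where 93.0% of all open promoters had one. The exceptions, Acsm2 and Slc13a3, were among the 3 weakest promoters. In the distal regions 34 of 45 (75.6%) had a shared footprint, where 63.2% of all shared distal regions did. In all, 82 shared footprints lay in the windows, 25 in promoters of the members, 49 in distal regions, 7 in promoters of Tmem25 and 1 outside any peak. Their widths ran from 7 to 81 bases with a median of 21.5. Replicate 1 alone listed 210 footprints in these windows and replicate 2 listed 205, of which 43.3% and 42.9% were shared, below the 50.9% and 50.8% of the whole genome. Counted by bases, 4.32% of the windows was listed at an FDR under 0.05 in both libraries. The median window of a member had 4.17% and that of all coding genes 2.70%.

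**Figure D3:**
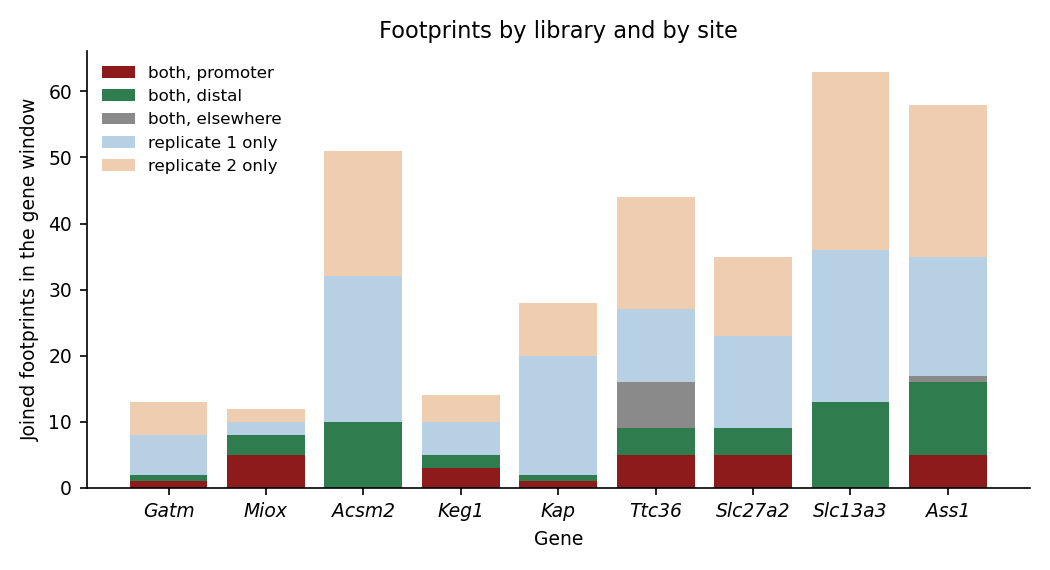
Number of joined footprints in the window of each gene, stacked by whether both libraries found them (dark, split by promoter, distal or other place) or 1 library (pale). Ass1, Ttc36 and Slc13a3 have the most shared footprints (17, 16 and 13), of which 7 at Ttc36 lie in Tmem25 promoters, and Acsm2 and Slc13a3 have none at their promoters.

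Of 13 motifs searched on both strands, none of the promoters of the 8 members in the RefSeq table held CAAAGTCC (HNF4), GTTAATNAT (HNF1), TCAAGGTCA (ERR), TTGCGCAA (C/EBP), TTGGCA (NFI) or TGANTCA (AP-1). Over all RefSeq promoters these occurred in 1.42%, 0.801%, 0.423%, 0.183%, 14.1% and 7.81%. The absence says only that these letters are not in those windows. A direct repeat of AGGTCA spaced by 1 base and the steroid receptor repeat were likewise not found. TATAAA was present in 3 of the 8 promoters (Acsm2, Kap and Miox), AGGTCA in 3 (Gatm, Miox and Slc27a2, against 16.3% of all) and AGNGGGC in 3 (Kap, Keg1 and Slc27a2, against 25.8%). CCAAT was present in 1, Gatm, against 37.4%. AGGTCA is part of TCAAGGTCA and of the direct repeat, so these searches overlap. In the distal regions CCAAT was present in 14 of 45 (31.1%, against 22.9% of all), TTGGCA in 8 (17.8%, against 19.4%), CAAAGTCC in 2 (4.44%, against 3.10%) and TGANTCA in 3 (6.67%, against 7.86%). At these numbers each share can move by several points with 1 or 2 regions.

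**Figure D4:**
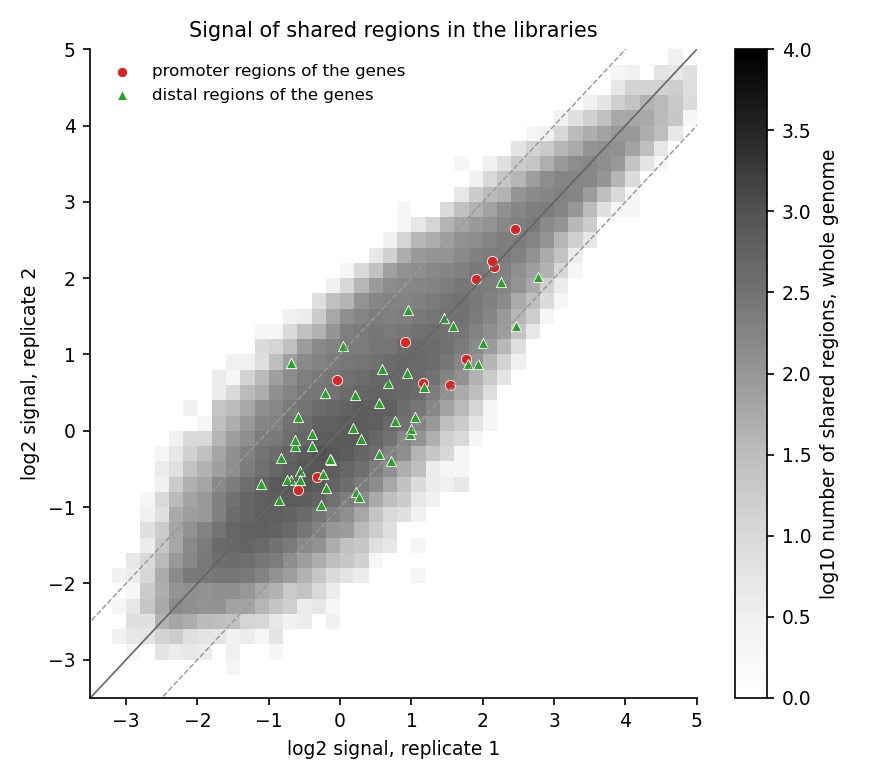
log2 signal of shared regions in replicate 1 (horizontal) and replicate 2 (vertical), with all regions of the genome as a grey density and promoter (red) and distal (green) regions of the 9 genes as points. The solid line marks equal signal and the dashed lines a 2-fold difference, past which lie 8 of the 59 regions.

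The libraries were compared region by region. Across the 59 regions, which share libraries and neighbourhoods and are not independent, the Spearman rho of the signals was 0.80, against 0.87 over all shared regions. The median log2 ratio (replicate 2 over replicate 1) was -0.18, against -0.01 over all, where the SD between regions is 0.63. Of the distal regions, 28 were higher in replicate 1 (62.2%, against 54.3% of all distal regions) and 17 in replicate 2. The member promoters split 6 and 5, with a median log2 ratio of -0.01 against 0.14 over all shared promoter regions. By gene the median log2 ratio ran from -0.60 at Acsm2 and Kap to 0.30 at Keg1. Signals differed more than 2-fold in 8 regions (13.6%, against 11.9% of all), of which 6 were higher in replicate 1. Taking a step as 1 tag, counting error gives a single region's log2 ratio a standard error of 0.07 to 0.26, so the larger differences exceed counting error. A further 18 regions were found in replicate 1 alone, with signals up to 2.39, and 13 in replicate 2 alone, up to 1.36. Of the regions of replicate 1 in these windows 76.6% were shared, against 72% of all its regions. For replicate 2 the shares were 81.9% and 79%. The region of 2.39, at Slc27a2, still had bases listed in replicate 2, at a best FDR of 0.0376. The 13 include intronic regions of Slc27a2 downstream of the abrupt FDR change in replicate 2.

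Regions around the marker genes of the tissue were compared between the libraries in the same way, without a test. Over all shared regions 50.6% were higher in replicate 1. Around the 14 other proximal tubule markers the median log2 ratio was -0.21, with 71 of 111 regions higher in replicate 1. Around the 3 stromal markers it was 0.44, with 17 of 20 regions higher in replicate 2. Promoter signals of the stromal genes were 1.69 and 3.13 at Pdgfra and 0.653 and 0.725 at Pdgfrb, and Acta2 had no shared promoter peak. Around podocyte markers the median was 0.12 (7 of 16 regions higher in replicate 1) and around collecting duct 0.10 (7 of 15). Around thick ascending limb it was -0.26 (6 of 11), around distal convoluted tubule -0.15 (9 of 17) and around endothelium -0.13 (13 of 19). Around hepatocyte markers it was -0.22 (5 of 9) and around immune markers -0.06 (5 of 8). The stromal value was the largest of these medians in size. The SD of 0.63 between single regions does not measure the uncertainty of a median over a list, which was not estimated. The part of tissue composition in the differences at the 9 genes was not tested.

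The genes were set beside 44 others of the same pathways. Of these 34 had an open promoter, against 63.0% of all coding genes. All 5 creatine genes were open, led by Gamt, which methylates the product of Gatm to creatine, with 10.0 and 11.6. All 10 genes of inositol and glucuronate handling were open, with mean signals of 3.40 to 10.8. The highest means were at Cryl1, a dehydrogenase of the pathway that follows Miox, with 10.3 and 11.3, and Dcxr, a reductase of the same pathway, with 12.1 and 9.24. Their order turns between the libraries. Among the medium-chain acyl-CoA synthetases and glycine conjugation enzymes 4 of 7 were open. The strongest was Acsm5, upstream of Acsm2, with 3.54 and 3.06, and Acsm4, Glyatl3 and Gm4952 had no shared promoter peak. Around Gm4952 there were 9 shared distal regions, and around Acsm4 and Glyatl3 there were none.

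The urea cycle list split. Asl, which acts after Ass1 in arginine synthesis, had 9.14 and 9.07, and Arg2 and Slc25a15 were also open. Cps1, Otc, Nags and Arg1 had no shared promoter peak. Around Nags there were 4 shared distal regions and around Cps1 3, and around Otc and Arg1 there were none. In the tyrosine list 5 of 6 were open, with the highest mean at Gstz1 (9.29 and 7.12). Fah, with 8.61 and 7.36, was above it in replicate 2, and Tat was not open. Of the other fatty acid transport proteins 4 of 5 were open, led by Slc27a1 with a mean of 13.7, and Slc27a5, a bile acid and fatty acid ligase of liver, was not. Of the other SLC13 carriers 3 of 4 were open, led by the dicarboxylate carrier Slc13a2 with 4.26 and 5.15. Slc13a4 had no shared promoter peak although 7 distal regions lay around it.

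**Figure D5:**
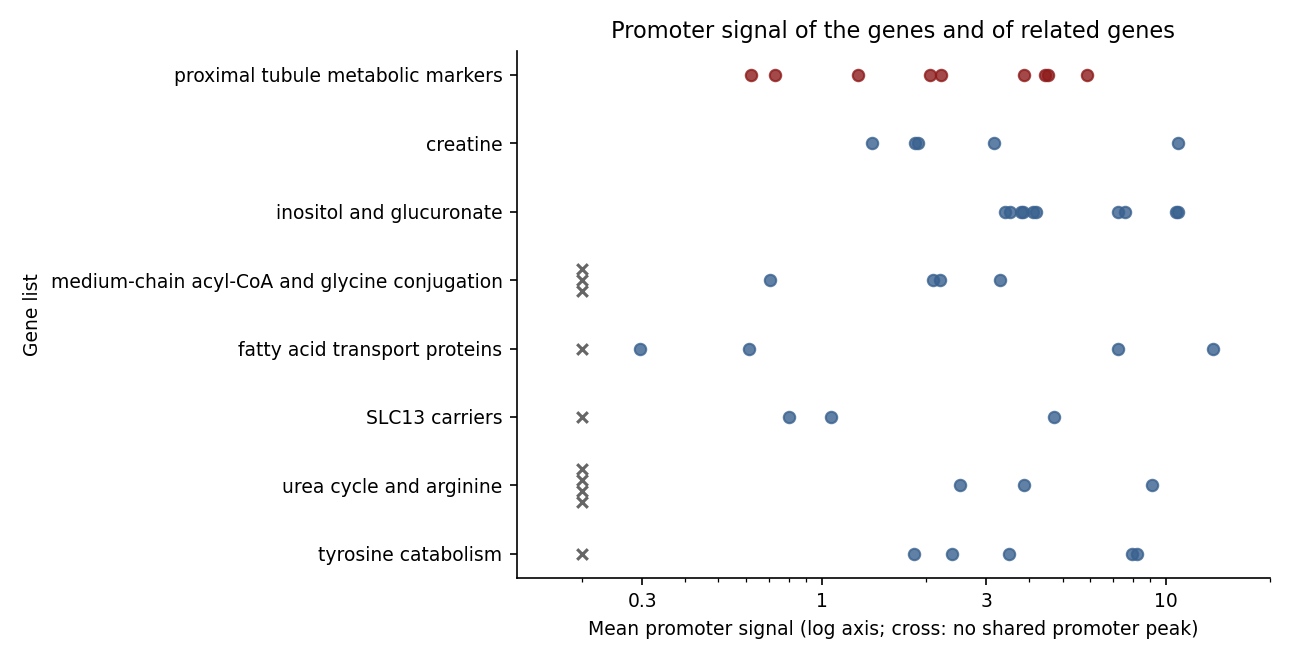
Mean promoter signal (log axis) of the 9 genes (red) and of 7 lists of related genes (blue), with crosses for genes that had no shared promoter peak. The urea cycle list has 4 crosses and the creatine and inositol lists have none.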

How the data were processed

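DNase-seq was measured in 2 kidney libraries, analysed as 1 group without a test between samples. The authors deposited peak lists with a signal value per peak, FDR values (a q-value per run of bases, none above 0.05) and footprints with a constant 0.01 (a p-value or q-value level), all on mm10 and each made from 1 library, per the file headers and the text deposited with them. For the aligner and callers, names and versions were not given in the sources used here. From these, the longer peak list of each library was joined at an overlap of at least 1 base with Python 3.11.15, numpy 2.4.6 and pandas 2.3.3, and each library's highest signal was kept. Genes came from GENCODE M21. Sequence is the C57BL/6J reference, from the RefSeq promoter table and GRCm38.p6, and 8 of 9 members matched the table. CpG-poor means below the median ratio of all coding genes within 500 bases of the first start. Joins and motif matching were tested on simulated intervals and sequences. The members, lists, windows and motifs were chosen with earlier results of these data known. All members, their promoter regions and their 3 strongest distal regions are named, with others singled out after their values were seen. Of related genes the strongest and those without a promoter peak are named, and a few more for their role. Standard deviations over 2 libraries are imprecise, and counting errors cover counting only. Alternatives were other promoter windows, flanks, overlaps, peak thresholds, FDR levels, scalings and single libraries.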

Additional observations from a re-analysis of the deposited data

How the results depend on the processing

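All 9 members were open with promoter windows of 2000 bases, with peaks joined only at an overlap of 50% of each, and in each library alone. With windows of 100 bases 8 were open. In the shorter peak list 6 were open, without Acsm2, Kap and Slc13a3, against 58.9% of all coding genes. Among peaks at or above the median signal 7 were open, without Acsm2 and Kap, against 56.5%. The 45 shared distal regions became 24 in the shorter list, 26 at or above the median signal, 27 in the gene bodies alone and 97 with flanks of 50 kb. The 82 shared footprints became 52 in the gene bodies alone, 185 with flanks of 50 kb, and 205 and 210 without replicate 1 and without replicate 2, when a footprint no longer had to be shared. The share of the windows at an FDR under 0.05, 4.32%, was 3.18% at an FDR under 0.01 and 5.34% to 5.94% without replicate 1 or 2. The median log2 ratio between the libraries was negative in all settings run, from -0.282 in the shorter list to -0.169 when centred on all shared regions. No paired analysis was possible because the design has 1 group. Shallow regions limit what can be read: the weakest shared region of a member held 56 tags in a library, if a step is 1 tag.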

Other observations

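The FDR file of replicate 2 holds a jump at Slc27a2 that the signal does not show. Between neighbouring bases 126552945 and 126552946 of chromosome 2, 539 bases past the first annotated start, the FDR went from 1.02e-11 to 1.44e-133, a change of 121.85 on the log10 scale. In the windows of the other 8 genes the largest change between neighbouring bases was 3.79, at Miox in replicate 1, and at Slc27a2 in replicate 1 it was 0.93. Downstream of the jump, the shared region at 3.28 kb had a signal of 1.54 and a best FDR of 4.38e-04 in replicate 2. Further on, replicate 2 alone listed 3 intronic regions whose middles lie 5.62, 6.61 and 7.2 kb from the start. Their best FDR values were 1.63e-07, 3.93e-23 and 3.29e-05 at signals of 0.450, 0.759 and 0.317. At Gatm a region with the same signal of 0.759 in replicate 2 had a best FDR of 0.00341. The signal of the promoter region itself was 3.74 in replicate 1 and 3.98 in replicate 2. The cause of the jump was not tested.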
